A study of Bos taurus with 9 samples.

Results

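The loci described here were the 54608 of 101889 deposited loci (53.6%) that were 31 to 35 bases long and that stood in neither of the study's lists of known, homologous and predicted miRNA. They were chosen by length alone (the end minus the start, plus 1), with no use of a count, and 0 of the 704 loci in the miRNA lists had such a length. That 0 was fixed in advance, since the study's length filter for miRNA ended below 31 bases. The length is that of the locus, and its reads can be shorter. The bases covered per read had a median of 95.5% of the locus length, and were 26.2 of 32 at chr9:65873520-65873551. Small RNA was sequenced from extracellular vesicles (EVs), the membrane-bound particles that cells release, of bovine follicular fluid. The 9 libraries were 3 of small follicles (3 to 5 mm; replicates 1, 2 and 4), 3 of medium follicles (6 to 9 mm; replicates 5, 6 and 8) and 3 of large follicles (over 9 mm; replicates 10, 11 and 12). The ovaries came from cows at an abattoir, no treatment was given, and the age and breed of the cows are not given in the sources used here. Fluid of a size was pooled on a collection day, so each library was a pool of many cows and could hold fluid of healthy and of atretic follicles, and the p-values below measure the spread between pools. The study describes 3 independent collections, each of which gave fluid of all 3 sizes. The labels do not tie a library to a collection, so the tests below are unpaired.

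Small RNA of this length is longer than miRNA and is known to arise mainly by cleavage of longer non-coding RNA. Fragments that end in the anticodon loop of tRNA are made by nucleases such as angiogenin, and fragments of Y RNA, the small RNA bound by the Ro60 protein, are likewise common in EVs and body fluids. Genes of tRNA exist in many near-identical copies, and sequences derived from Y RNA are scattered over mammalian genomes, so that a short read can map equally well to several places in the genome. No genome or annotation of the build used by the study (UMD3.1) was at hand, so loci are given by position on that build, and neither their sequence nor the RNA that gave rise to them was determined here.

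Total counts per library over all deposited loci ranged from 8941598 (Small 2) to 14664460 (Small 1), so that a share of 3 counts, the smallest that can be told from a count of 0, lay between 2.05e-05% and 3.36e-05%. It covers counting error only, since reads were amplified by PCR without molecular identifiers. The loci of 31 to 35 bases held 24821770 of 99838594 counts (24.9%). The medium follicle libraries were not alike. Over the 44088 tested loci of this length, the scaled log2 counts of Medium 8 had a mean Pearson correlation of 0.83 with the small, 0.75 with the other medium and 0.78 with the large follicle libraries. In the same order the values were 0.79, 0.84 and 0.87 for Medium 5 and 0.71, 0.77 and 0.85 for Medium 6, so that Medium 8 lay closer to the small and the other 2 closer to the large follicle libraries. Among libraries of other sizes, Medium 8 was closest to Small 4 (0.89) and then to Large 12 (0.87), and Small 4 and Large 12 were closest to each other among the small and large pairs (0.81). These coefficients are across loci, which are not independent, and whether such libraries came from the same collection cannot be told from the labels.

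The share of each library on these loci did not differ detectably over the follicle sizes. It was 22.4%, 36.7% and 24.5% in Small 1, 2 and 4, 20.9%, 25.0% and 26.2% in Medium 5, 6 and 8, and 21.9%, 25.0% and 24.3% in Large 10, 11 and 12. The means were 27.9 ± 7.71%, 24.02 ± 2.78% and 23.7 ± 1.63% for the 3 sizes from small to large (SD, n = 3 each), and the trend over the size rank gave p = 0.36 (exact permutation test, two-sided; adjusted p = 0.48 over the 4 trends tested). Small 2 lay far above the other 8 libraries, and without it the mean of large follicles was 0.24 percentage points above that of small ones. The result also depended on what was counted. With only counts outside the miRNA lists as the denominator, the difference of large minus small was -10.6 percentage points (p = 0.0274, exact permutation test), and with loci kept only where a size averaged 100 counts or more it was -9.53 (p = 0.0536 by the same exact test). With 3 libraries against 3, a pair of sizes cannot reach a p below 0.1 in this test, and 0.00119 is the smallest that the trend can give.

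Against the neighbouring longer class the loci lost ground. Loci of 36 to 50 bases outside the miRNA lists took 17.8 ± 4.06%, 33.02 ± 5.50% and 42.6 ± 4.11% of small, medium and large follicle libraries. The log2 ratio of the share of 31 to 35 bases to that of 36 to 50 bases was 0.44, 0.72 and 0.76 in the small, -0.85, -0.47 and -0.04 in the medium and -1.03, -0.85 and -0.64 in the large follicle libraries. The small follicle libraries did not overlap with those of either other size, and the difference of large minus small was -1.48 (trend p = 0.00238, exact permutation test, two-sided; adjusted p = 0.00952). Against loci of 25 to 30 bases, which took 20.4 ± 5.91%, 21.8 ± 4.57% and 17.9 ± 0.56%, the log2 ratio of large minus small was -0.05, with p = 0.92 by the same permutation test. The miRNA lists fell from 22.2 ± 6.62% to 7.89 ± 4.08% and 4.87 ± 2.14% of the counts over the sizes. Shares of a library add up to a whole, so that a change in one class moves the others.

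**Figure D1:**
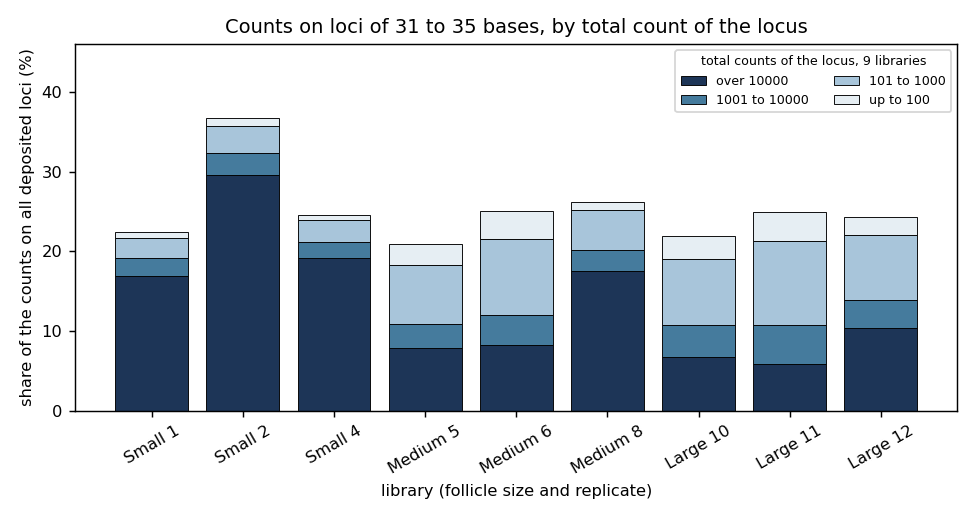
Share of each library's counts that lay on loci of 31 to 35 bases (bar height, %), divided by the total count of the locus over the 9 libraries; the x axis gives the library. Loci over 10000 counts make up 16.9 to 29.5% of the small follicle libraries and 5.91 to 10.4% of the large ones, while the bars of both sizes, except Small 2, are of similar height.

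What changed was the place of the counts within the class. Only 160 of the 54608 loci (0.293%) had over 10000 counts in total, yet they held 53.7% of the counts of the class. They took 16.9%, 29.5% and 19.2% of the small, 7.83%, 8.28% and 17.6% of the medium and 6.73%, 5.91% and 10.4% of the large follicle libraries. All small follicle libraries therefore lay above all large ones, and Medium 8 lay among the small. The means were 21.9 ± 6.74%, 11.2 ± 5.50% and 7.69 ± 2.40%. The class was set by the total over all 9 libraries, so a locus high in any of them could enter it. The 160 tested loci with the highest CPM (counts per 1000000 counts on all deposited loci) in the medium follicle libraries alone, of which 145 are the same, took 21.6 ± 6.66% of the small and 7.74 ± 2.32% of the large follicle libraries.

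The remaining loci moved the other way by share. The 27935 loci with up to 100 counts took 0.81 ± 0.21%, 2.39 ± 1.25% and 2.93 ± 0.68% of small, medium and large follicle libraries. The 24966 loci over 100 and up to 1000 counts took 2.86%, 7.28% and 9.01% on average, and the 1547 loci over 1000 and up to 10000 counts took 2.36%, 3.13% and 4.10%. Scaled to the total count of the library, the mean count was higher in large follicle EVs than in small ones for 97.95%, 96.5% and 81.4% of the loci in these classes from low to high, against 18.8% of the 160 loci over 10000. These shares of loci are descriptions without a test, because loci of a library share its total.

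Concentration on a few loci followed the same order. The 10 highest loci of each library held 33.7%, 37.8% and 31.2% of its counts of this class in Small 1, 2 and 4, 17.3%, 17.1% and 34.6% in Medium 5, 6 and 8, and 13.5%, 9.30% and 19.8% in Large 10, 11 and 12. No large follicle library reached the lowest small one, and Medium 8 lay within the range of the small. The means were 34.2 ± 3.29%, 23.03 ± 10.1% and 14.2 ± 5.27%, a difference of large minus small of -20.0 percentage points (trend p = 0.0119, exact permutation test, two-sided; adjusted p = 0.0238). The 100 highest loci held 74.3 ± 2.84%, 43.0 ± 17.8% and 30.7 ± 8.78%.

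The number of loci needed to reach 50% of the counts of the class shows the same contrast. It was 36, 26 and 39 loci in the small follicle libraries, 1233, 1797 and 42 in the medium and 1607, 2898 and 562 in the large. The median count of a locus was 6, 5 and 3 in the small, 16, 20 and 5 in the medium and 14, 18 and 13 in the large follicle libraries. From 89.8% (Small 4) to 99.8% (Medium 5) of the loci had at least 1 count in a library. Pooled over the libraries, 103 loci held 50% and 22375 held 90% of the counts, and the median locus had a total of 99 counts (17 to 1142255).

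**Figure D2:**
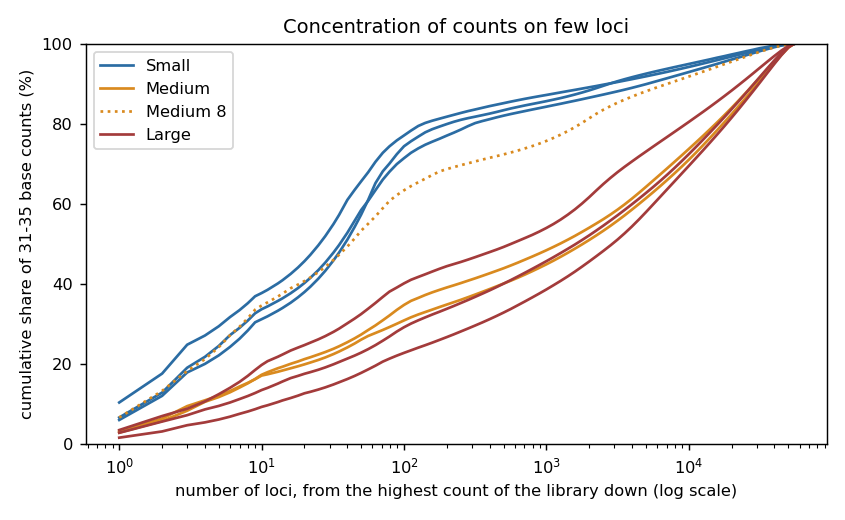
Cumulative share of the counts on loci of 31 to 35 bases (y axis, %) against the number of loci taken from the highest count down (x axis, log scale), 1 line per library. At 100 loci the small follicle libraries have reached 71.5 to 77.1% and the large 22.8 to 40.2%; the dotted line of Medium 8 (63.4%) runs next to the small libraries.

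Many high-count loci had counts that could not be told apart from those of other loci. Loci whose 9 counts differed by no more than sampling noise (chi-square p above 0.001) and whose lengths differed by at most 1 base were grouped, and the 160 loci over 10000 counts fell into 46 such groups. Of these, 27 were single loci, and 19 groups held the other 133 loci, with up to 17 loci in a group. The 5 highest groups together held 29.9% and the 10 highest 42.6% of all counts of the class. Loci of a group are given with their summed CPM, since they cannot be taken as independent measurements and the placing of their reads is uncertain.

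The highest group was a pair of 32-base loci at chr4:112950967-112950998 and chr6:76856521-76856552, both on the plus strand, with 1141907 and 1142255 counts. Its summed level was 27889, 52989 and 29590 CPM in Small 1, 2 and 4, 12025, 15945 and 34781 CPM in Medium 5, 6 and 8, and 12324, 7769 and 17044 CPM in Large 10, 11 and 12. The small and large follicle libraries did not overlap, and Medium 8 lay within the range of the small. The mean in small was 2.98 times that in large follicle EVs, and on the scale of the fit described below the chromosome 6 locus fell by 3.17 on the log2 scale (SE 0.79, edgeR's quasi-likelihood FDR = 0.0345). That call was lost without any 1 of the small or large follicle libraries (log2 fold change -3.71 to -2.83, edgeR's quasi-likelihood FDR 0.0639 to 0.154), and with only loci averaging 100 counts or more in a size (FDR = 0.211).

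The next single locus, chr4:112931232-112931262 (31 bases, plus strand), showed a larger contrast. It had 14910, 38176 and 14363 CPM in the small, 4650, 7821 and 12995 CPM in the medium and 3152, 1781 and 3883 CPM in the large follicle libraries, so that none of the 3 sizes overlapped. The mean was 7.65 times higher in small than in large follicle EVs (log2 fold change -4.49, SE 0.82, edgeR's quasi-likelihood FDR = 0.00658). The ratio was 4.98 without Small 2, and the call was lost without Large 10 (edgeR's quasi-likelihood FDR = 0.051) and with only loci averaging 100 counts or more in a size (0.124). A locus of 32 bases on the same strand, chr4:112931291-112931322, began 28 bases after its end and had 454 to 600 CPM in small and 159 to 368 CPM in large follicle EVs, a ratio of 2.28. It was not called (log2 fold change -2.84, edgeR's quasi-likelihood FDR = 0.0503), and the difference in change between these neighbours was not tested.

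Both loci lay in a stretch of chromosome 4 from 112931232 to 112975253 with 5 loci over 10000 counts. This stretch alone held 11.1% of all counts of the class, with 16.8 ± 3.19%, 9.79 ± 4.72% and 5.28 ± 2.20% in EVs of small, medium and large follicles. Its locus at chr4:112975222-112975253, on the minus strand, formed a group with chr6:31415763-31415794 and chr10:69424953-69424984 (32 bases each). Their summed level was 12228, 25362 and 15634 CPM in the small, 7443, 8648 and 23339 CPM in the medium and 5662, 4319 and 13273 CPM in the large follicle libraries. Here Large 12 lay above Small 1, and the 3 loci did not pass the test (edgeR's quasi-likelihood FDR from 0.0857 to 0.088), although the mean in small follicle EVs was 2.29 times that in large, and 3.56 times without Large 12. They were called by the same test without Medium 8 (FDR 0.00308 to 0.00318) or Medium 6 (0.0439 to 0.0451). All 3 were also called lower by that test with the total count (FDR 0.0189 to 0.0198) or with only both sizes fitted (0.00784 to 0.00800). The same held for edgeR's exact test (FDR 0.0160 to 0.0169) and DESeq2 (0.00797 to 0.00852). They were not called by the quasi-likelihood test with DESeq2's size factors (FDR 0.0890 to 0.0911) or with no filter (0.0910 to 0.0931).

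On chromosome 7, 3 loci of 34 bases on the plus strand (chr7:31760787-31760820, chr7:31761843-31761876 and chr7:31762928-31762961) had 386037 to 387123 counts each. Their sum was 18262, 19086 and 15104 CPM in the small, 6670, 6826 and 16734 CPM in the medium and 4925, 5340 and 10840 CPM in the large follicle libraries, with no overlap between small and large. The first of them fell by 2.95 on the log2 scale between small and large follicle EVs (SE 0.76, edgeR's quasi-likelihood FDR = 0.0419), and lost its call without any 1 of Small 1, 2 and 4 and Large 10 and 11 (FDR 0.0892 to 0.182). In those fits the log2 fold changes of the 3 loci stayed between -3.04 and -2.66. Each of the 3 was followed on its strand, after 53 bases, by a locus of 31 bases with 3981 to 4117 counts and, a further 19 bases on, by a locus of 33 bases with 6968 to 7126 counts. The order and the spacing were therefore repeated 3 times within a short stretch, with the first locus far above those that follow it.

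Some of the larger groups lay mainly on chromosome 3. A group of 16 loci of 33 bases (10 on chromosome 3, 5 on chromosome 23 and 1 on chromosome 7) was below only the pair of 32 bases in summed counts (1630700, 6.57% of the class) and had a summed level of 22908, 46692 and 26104 CPM in the small, 6851, 8481 and 18533 CPM in the medium and 4961, 6158 and 10384 CPM in the large follicle libraries. All 16 loci were called lower in large follicle EVs, the mean in small being 4.45 times higher. Groups of 11 and of 15 loci of 33 bases, also mostly on chromosome 3, were 4.96 and 4.22 times higher in small follicle EVs, and all of their loci were called. These calls were lost without some single libraries, although the fold changes remained. Without Large 10 or Large 11, none of the loci of the 3 groups was called (edgeR's quasi-likelihood FDR 0.0555 to 0.114), and those of the group of 15 were not called without Small 1, 2 or 4 either (0.0537 to 0.104). In those fits the log2 fold changes were -3.54 to -3.48 in the group of 16 (-3.77 to -3.73 with all libraries). They were -3.70 to -3.66 in the group of 11 (-3.93 to -3.90) and -3.90 to -3.19 in the group of 15 (-3.72 to -3.67). The stretch of chromosome 3 from 20910419 to 21444982, with 34 loci over 10000 counts, held 19.6 ± 1.76%, 7.85 ± 3.66% and 5.24 ± 2.16% of the counts of the class in EVs of small, medium and large follicles.

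The largest fall among groups of the 160 loci was that of 8 loci of 33 bases on chromosomes 15, 16, 19 and 23. The 160 loci were set by the total over all libraries, to which the small follicle libraries gave most for these 8. The size of this fall is therefore not independent of how the loci were chosen. Their sum was 4082, 5822 and 4669 CPM in the small, 830, 719 and 1551 CPM in the medium and 360, 232 and 349 CPM in the large follicle libraries. None of the 3 sizes overlapped, the mean in small was 15.5 times that in large follicle EVs, and all 8 loci were called both in large and in medium against small. The call in large held without any single library, whereas 0 of the 8 were called in medium without any 1 of Small 1, 2 and 4 and Medium 5 and 6 (edgeR's quasi-likelihood FDR 0.0783 to 0.218), and 3 without Large 10.

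Not every high-count locus fell. The tenth highest locus, chr9:65873520-65873551 (32 bases, plus strand), had 1517, 1049 and 906 CPM in the small, 5394, 3640 and 2718 CPM in the medium and 3498, 4017 and 3034 CPM in the large follicle libraries. All libraries of both other sizes lay above the small by CPM, but the fitted log2 fold change of large against small, after scaling by the trimmed mean of M-values, was -0.16 (SE 0.42, edgeR's quasi-likelihood FDR = 0.93). A group of 14 loci of 31 bases on 6 chromosomes, 5 of them on chromosome 27, had 1149, 1139 and 855 CPM in the small, 4122, 2892 and 2287 CPM in the medium and 5981, 6395 and 3496 CPM in the large follicle libraries. It was lowest in small follicle EVs by CPM without overlap, and 0 of its 14 loci were called after that scaling. When only loci averaging 100 counts or more in a size were kept, all 14 were called higher (log2 fold change 0.74 to 0.82, edgeR's quasi-likelihood FDR 0.0137 to 0.024), among 16 of the 160 loci. In all, 30 of the 160 loci, on 14 chromosomes, were called higher in large follicle EVs when libraries were scaled by total count, and their log2 fold changes lay between -0.32 and 0.71 by the trimmed mean. The other 130 were below 0 under both scalings.

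**Figure D3:**
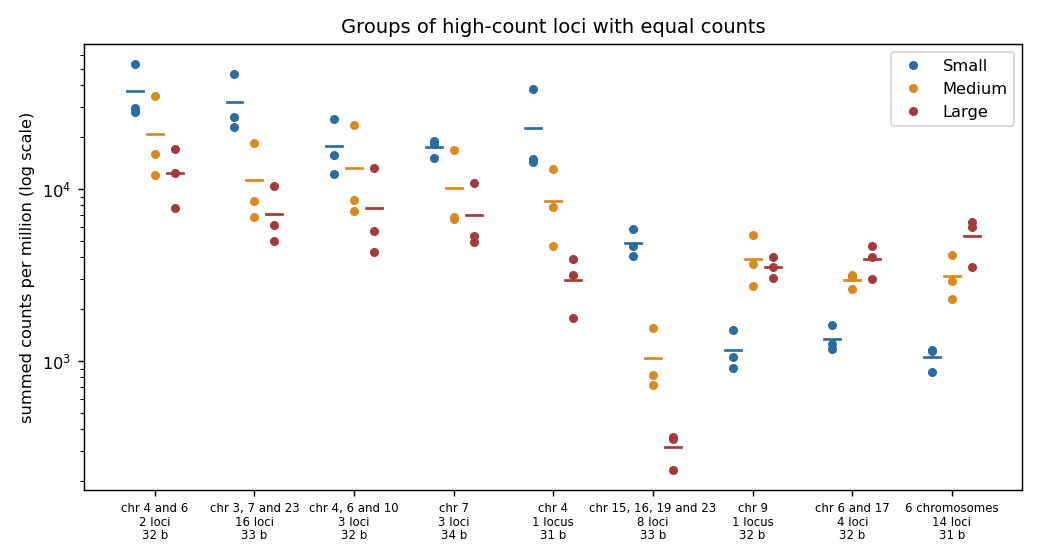
Summed CPM (y axis, log scale) of 9 groups of high-count loci of equal counts, 1 point per library with the mean of each size as a bar; the x axis gives the chromosomes, the number of loci and their length in bases (b). In the 6 groups on the left every mean is highest in small follicle EVs, and in the 3 on the right every small follicle library lies below the libraries of the other sizes.

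Each locus was then compared between sizes with edgeR's quasi-likelihood test on the counts of all deposited loci, scaled by the trimmed mean of M-values (TMM). A locus was called at a false discovery rate (FDR) under 0.05 over the 85601 loci tested, of which 44088 were of 31 to 35 bases; the other members had too few counts. For large against small, 1208 of these loci (2.74%) were called lower and 112 (0.254%) higher, beside 5.63% and 0.231% of all tested loci. The share called lower was thus below that of all loci. For medium against small, 365 (0.828%) were called lower and 4 higher, beside 1.45% and 0.0105% of all loci. These directions are relative to the scaling, as described below. All 365 were among the 1208 (30.2% of them), and both comparisons use the same small follicle libraries.

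For large against medium, edgeR's quasi-likelihood test called 0 loci in either direction, beside 0% of all loci. At an unadjusted p under 0.05 there were 1803 of the 44088, and 97 were called by DESeq2 and 92 by edgeR's exact test. Over all 85601 tested loci, DESeq2 called 662 and the exact test 499. The number at an unadjusted p was not counted over all loci. The call counts depended on single libraries. For large against small, 857 loci were called without Small 1, 795 without Small 4, 695 without Large 10 and 606 without Large 11, of 1320 with all libraries, and 1847 without Medium 8. For medium against small, 369 became 23, 132 and 39 without Small 1, 2 and 4, 0 without either Medium 5 or Medium 6, and 1516 without Medium 8.

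The direction of the loci up to 10000 counts rested on the scaling. TMM factors were 0.45, 0.62 and 0.41 in the small, 1.46, 1.93 and 0.72 in the medium and 1.68, 1.97 and 1.31 in the large follicle libraries. With the total count in place of TMM, the median log2 fold change of large against small moved from 0.09 to 1.81 over all tested loci and from 0.23 to 1.95 over those of 31 to 35 bases. The calls then were 28579 higher and 1018 lower, in place of 112 and 1208. For medium against small they were 11413 higher and 691 lower, in place of 4 and 365, and the median over the loci of 31 to 35 bases moved from 0.15 to 1.59. Of all 85601 tested loci, 55251 were then called for large against small, in place of 5021. For medium against small, 26364 of all tested loci were, in place of 1252. The rise in calls was thus not particular to this length. The loci over 10000 counts kept their direction for the most part: 108 of 160 were called lower with TMM and 120 with the total count, where 30 were called higher.

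By count class, 108 of 160 loci over 10000 (67.5%) were called lower in large than small follicle EVs and 0 higher, with a median log2 fold change of -3.44 (-1.85 with the total count), beside 5.63% lower and 0.231% higher over all tested loci. Without Large 10 or Large 11 these 108 calls were 16 and 17, without Small 1, 2 or 4 they were 58, 61 and 55, and with 1 locus kept per group of equal counts 24 of 46 (52.2%). Without Medium 8 they were 129 (all 9 libraries enter a single fit). Of the 160 loci chosen on the medium follicle libraries, 99 were called lower and 0 higher, with a median of -3.38 (-1.68 with the total count, where 39 were called higher). Of the loci over 1000 and up to 10000 counts, 243 of 1547 (15.7%) were called lower and 4 (0.259%) higher. Of those over 100 and up to 1000, 657 of 24935 (2.64%) were lower and 78 (0.313%) higher. Of those up to 100, 200 of 17446 (1.15%) were lower and 30 (0.172%) higher. The share called lower was thus above that of all loci in the upper classes and below it in the lower ones. With the total count, 1197, 17325 and 10027 loci of these 3 classes, from high to low, were called higher and 236, 514 and 148 lower. For medium against small, 10 of the 160 loci over 10000 were called lower, 0 without any 1 of Small 1, 2 and 4 and Medium 5 and 6, and 122 without Medium 8.

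**Figure D4:**
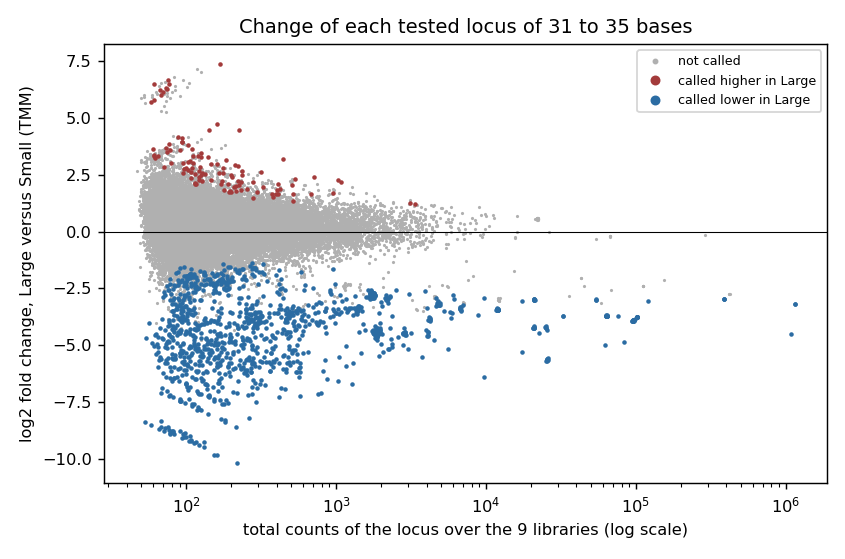
Log2 fold change of large against small follicle EVs with TMM scaling (y axis) against the total count over the 9 libraries (x axis, log scale), 1 point for each of the 44088 tested loci of 31 to 35 bases; blue and red points were called lower and higher. The grey mass lies around 0 (median 0.23), and the points at the right are mostly called lower, with a few close to 0.

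The loci named next were the called loci of at least 300 counts with the largest changes between libraries that did not overlap. The 6 largest falls from small to large follicle EVs lay on chromosomes 3, 14, 16, 18 and 28. At chr16:44219879-44219913 (35 bases, plus strand) there were 180, 197 and 129 counts in the small, 12, 15 and 32 in the medium and 4, 3 and 3 in the large follicle libraries (log2 fold change -7.25, SE 0.82, edgeR's quasi-likelihood FDR = 0.000716). At chr28:41491086-41491118 (33 bases, minus strand) there were 214, 367 and 97, then 18, 38 and 12, and then 0, 3 and 11 counts (-7.12, SE 0.95, FDR = 0.00138 by the same test). This locus was also among the largest falls from small to medium (-4.82), together with chr22:47474777-47474807 (-4.96) and chr19:43148794-43148828 (-4.75). The other falls were at chr18:56397722-56397754 (-7.27), chr28:25647036-25647068 (-7.10), chr14:2326077-2326110 (-6.94) and chr3:13083105-13083139 (-6.86). All of these had at most 788 counts in total, far below the loci described above. The falls to large kept their call without any single library, whereas those to medium lost it without Medium 5 or Medium 6 (edgeR's quasi-likelihood FDR 0.0669 to 0.242).

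The 6 largest rises from small to large were smaller, by more with TMM than with the total count. With the total count their log2 fold changes were 3.92 to 4.99, against -5.63 to -5.22 for the 6 falls. At chr1:65781296-65781328 (33 bases, plus strand) there were 3, 1 and 5 counts in the small, 49, 96 and 9 in the medium and 105, 108 and 62 in the large follicle libraries (log2 fold change 3.20, SE 0.63, edgeR's quasi-likelihood FDR = 0.0101). At chr7:1326205-1326237 (33 bases, plus strand) the counts were 33, 15 and 8, then 95, 125 and 36, and then 184, 320 and 258 (2.19, SE 0.43, FDR = 0.00998 by the same test). In both, Medium 8 had the lowest count of the medium libraries. The others were at chr1:55180272-55180306 (2.61), chr24:9979594-9979627 (2.39), chr16:53320613-53320647 (2.32) and chr11:105491050-105491083 (2.27). The call of chr1:65781296-65781328 was lost without Small 1 (edgeR's quasi-likelihood FDR = 0.0688), that of chr7:1326205-1326237 without Small 2, Small 4 or Large 11 (FDR 0.0515 to 0.052), and each of the other 4 without Small 1, Small 4 or Large 11 (FDR 0.0594 to 0.167). No rise from small to medium met these conditions.

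Lengths within the class differed in count and in the direction of their mean share. Loci of 34 bases were the most frequent (21225, 38.9%), but those of 33 and 32 bases held the most counts (26.7% and 24.9%), and the 10 highest loci of 32 bases held 69.8% of the counts of that length. From small to large follicle EVs, the share of the library went from 3.74 ± 1.47% to 2.52 ± 0.38% for 31 bases, from 7.62 ± 2.40% to 5.04 ± 0.70% for 32 bases and from 10.0 ± 3.01% to 4.88 ± 0.31% for 33 bases. It went from 3.95 ± 0.73% to 5.91 ± 0.81% for 34 bases and from 2.56 ± 0.42% to 5.38 ± 1.02% for 35 bases. The mean share was thus lower in large follicle EVs at the 3 shorter lengths and higher at the 2 longer ones, as a description without a test. Few loci weigh heavily in these means, since the 10 highest held 45.1% of the counts at 31 bases and 69.8% at 32. At 31 bases, chr4:112931232-112931262 alone had 14910, 38176 and 14363 CPM in the small follicle libraries. In the large ones it had 3152, 1781 and 3883 CPM. Shares of each length without such loci were not computed, so the direction may not hold for most loci of a length. At 31 bases the sizes overlapped and Small 2 stood apart. The shares were 3.03%, 5.43% and 2.75% in Small 1, 2 and 4 and 2.69%, 2.77% and 2.08% in Large 10, 11 and 12. Of the tested loci, 289 of 3591 (8.05%) were called lower at 31 bases, 218 of 3422 (6.37%) at 32, 284 of 9127 (3.11%) at 33, 203 of 16695 (1.22%) at 34 and 214 of 11253 (1.90%) at 35, beside 5.63% of all loci. Loci of equal counts enter these numbers separately and are not independent. On chromosome 25 alone, 59 of the calls at 31 bases came from 1 such group, and 53 at 34 or 35 bases from another. Calls after TMM scaling were mostly lower at each length, with 12 to 36 called higher. With the total count they were mostly higher. From 31 to 35 bases, 1531, 1603, 5723, 11571 and 8151 loci were then called higher and 251, 191, 232, 165 and 179 lower.

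The loci were spread over all chromosomes, their counts were not. Between 18.3 and 34.99 loci of 31 to 35 bases lay on each megabase of the 29 autosomes and the X chromosome (median 20.5), with the highest density on chromosome 25. They were split evenly between the strands (50.3% plus), and 12.3% had another deposited locus within 1000 bases, against 26.5% of the other deposited loci. Chromosome 3 held 4.46% of the loci and 14.1% of the counts, and chromosome 4 held 4.39% and 13.2%. Chromosomes 6 and 7 followed with 9.58% and 7.95% of the counts, and the 6 chromosomes with the most counts held 53.3% of the counts and 25.9% of the loci.

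These shares moved with follicle size. Of the counts of the class, chromosome 3 took on average 21.6%, 10.8% and 8.68% in EVs of small, medium and large follicles, and chromosome 4 took 17.6%, 12.3% and 8.46%. Chromosome 1, with 5.51% of the loci and 1 locus over 10000 counts, went the other way, from 1.64% to 3.27% and 3.95%. In large follicle EVs the counts were therefore closer to the distribution of the loci. The mitochondrial genome held 15 loci and 19102 counts. Its highest, MT:2345-2379 (35 bases, plus strand), had 468, 508 and 544 counts in the small, 241, 332 and 1157 in the medium and 151, 138 and 610 in the large follicle libraries, and was not called (log2 fold change -2.38, SE 0.93, edgeR's quasi-likelihood FDR = 0.21; 0.0211 without Medium 8). Of the 14 mitochondrial loci tested, all 14 had a fold change below 0 (median -3.31, and -1.74 with the total count) and 5 (35.7%) were called lower, beside 5.63% of all loci. Those 5, named after their values were seen, were MT:364-395 (-5.03), MT:5378-5409 (-4.74), MT:1088-1118 (-4.18), MT:4126-4158 (-3.56) and MT:2915-2946 (-3.14). Of the 5, 2 were called without Large 10 or without Large 11 and 3 without Small 1 or without Small 4.

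**Figure D5:**
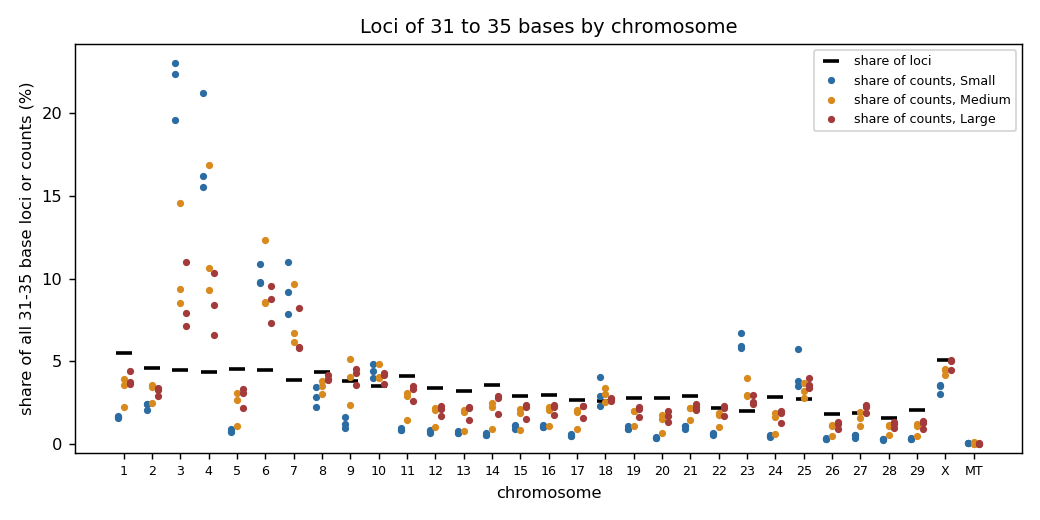
Share of all loci of 31 to 35 bases (black dashes, %) and of their counts in each library (points, %) by chromosome (x axis). On chromosome 3 the small follicle libraries lie highest, against 4.46% of the loci, and on chromosome 1 they lie lowest; on chromosome 4 Medium 8 lies among them.

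A stretch of chromosome 25 stood out among the calls, and it was chosen after its values were seen. From 32363246 to 32463575 there were 1141 deposited loci, of which 333 were of 31 to 35 bases, all on the plus strand. Of the 328 tested, 262 (79.9%) were called lower in large follicle EVs, which is 21.7% of the 1208 such calls, and 102 were called lower in medium than in small. Elsewhere 946 of 43760 loci (2.16%) were called lower. The 262 calls became 139, 137 and 141 without Small 1, 2 and 4, and 105, 97 and 160 without Large 10, 11 and 12. With 1 locus kept per group of equal counts, 130 of 192 were called lower, among 948 such calls in all. With the total count 191 of 328 were. The summed level of the stretch was 7331, 6110 and 3791 CPM in the small, 1496, 1727 and 2945 CPM in the medium and 2351, 2819 and 1862 CPM in the large follicle libraries, so that the small follicle libraries lay above all others.

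The loci of this stretch were repeated. Of the 150 with at least 1000 counts, 59 loci of 31 bases formed a group of equal counts whose starts followed each other at a median step of 965.5 bases, and 53 loci of 34 or 35 bases formed another at a median step of 1054 bases. All 59 and all 53 were called lower in large follicle EVs. The 59 kept their call without any single library, whereas at most 4 of the 53 were called without any 1 of the small or large follicle libraries. The first group summed to 3846, 1493 and 1151 CPM in the small and 389, 477 and 212 CPM in the large follicle libraries, 6.02 times higher in the mean of small and 3.68 times without Small 1. The second summed to 1219, 2156 and 1181 CPM in the small and 670, 778 and 680 CPM in the large, 2.14 times higher. Small 1 was the highest library for the first group and Small 2 for the second, so the repeats did not move together within the small follicle group. Counts within each group could not be told apart, and the placing of reads that map to several repeats is not given. These calls therefore cannot be taken as independent of each other.

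Markers of the cells that could release EVs into the fluid were compared as well. Of 10 miRNA names listed as typical of granulosa and theca cells, 7 were found in the miRNA lists of the study, the highest being miR-21-5p, and miR-212, miR-503-5p and miR-145 were not. Their sum was 12874, 5702 and 15627 CPM in the small, 1355, 1023 and 2987 CPM in the medium and 348, 364 and 1945 CPM in the large follicle libraries. Within the miRNA counts they made up 5.35%, 3.83% and 5.63% of the small, 2.37%, 1.91% and 2.37% of the medium and 0.939%, 1.02% and 2.65% of the large follicle libraries. Not every name fell: miR-132 was highest in Large 12 (100 CPM, against 1.24 to 21.2 CPM in the others). After its own normalization, the study reports this name as more abundant in large than in small follicle EVs. Of 7 names typical of blood cells, 4 were found, the highest being miR-486, and miR-144, miR-223 and miR-142-3p were not. Their sum was 181, 327 and 133 CPM in the small, 69.6, 110 and 171 CPM in the medium and 132, 145 and 750 CPM in the large follicle libraries, so that Large 12 lay above the others and the order by CPM did not follow follicle size. Within the miRNA counts, however, they made up 0.075%, 0.22% and 0.0477% of the small, 0.122%, 0.205% and 0.136% of the medium and 0.355%, 0.406% and 1.02% of the large follicle libraries, so that all large follicle libraries lay above all others. The blood cell sum was mostly miR-486 in these libraries, with 121, 118 and 611 CPM in Large 10, 11 and 12. Other names on that list did not separate the sizes by CPM. In the same libraries miR-451 had 3.18, 5.18 and 28.3 CPM, against 19.5, 24.04 and 2.65 CPM in Small 1, 2 and 4. In that order miR-142-5p had 6.78, 17.1 and 69.8 CPM, against 52.9, 21.4 and 65.5 CPM. For miR-150 the values were 1.03, 4.985 and 40.1 CPM, against 1.84, 0.895 and 2.46 CPM. These CPM are scaled by the total count alone. After its own normalization, the study reports every blood cell name found here as more abundant in large than in small follicle EVs. The part of these marker values in the changes of the loci of 31 to 35 bases was not tested.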

How the data were processed

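EV RNA of 9 pools was made into small RNA libraries (TruSeq) and sequenced in single reads of 50 cycles. The authors removed adapters, mapped reads with BWA (0.7.5a per the labels) to the bovine build UMD3.1, merged mapped reads into loci and deposited raw counts per locus, with no normalization. The deposited loci have at least 45 reads per base by the study's methods. The handling of multi-mapped reads is not given in the sources used here.

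Members and lists were chosen with earlier results of these data known. The counts were used as deposited. Loci kept by filterByExpr were scaled by TMM, and pairs of sizes were compared in edgeR 4.0.16 (R 4.3.3; limma 3.58.1) by its quasi-likelihood test, two-sided, in a single fit of all samples, with Benjamini-Hochberg adjustment over every locus tested. The test gives no SE. Each SE above was derived as the absolute log2 fold change divided by the square root of the F statistic. Shares and ratios were tested for a trend over the size rank by exact permutation (Python 3.11.15; pandas 2.3.3, numpy 2.4.6, scipy 1.17.1). Plots were made in matplotlib 3.10.9. The procedures were tested on simulated data.

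Loci named individually were the 10 with the highest total, the largest changes described in the report with 1 locus per group of equal counts, and the highest mitochondrial locus. Equal-count groups among the loci over 10000 counts, the stretches of chromosomes and the locus of 32 bases beside the chromosome 4 locus were chosen after their values were seen. Alternatives were the total count, DESeq2's size factors, DESeq2 1.42.0, edgeR's exact test, no filter, a group mean of at least 100 counts, a fit of only the pair compared, an FDR under 0.1, 1 locus per equal-count group and leaving out each sample. For shares they were leaving out the 10 highest loci, another denominator, 30 to 36 bases and the 100 highest loci. Calls over 10000 counts, as many loci chosen on the medium follicle libraries and the ratios and calls of groups under other settings were added after seeing the data.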

Additional observations from a re-analysis of the deposited data

How the results depend on the processing

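Each collection gave fluid of all sizes, but no paired analysis was possible because the sizes share no replicate number and the labels tie no library to a collection. The p-values therefore ignore any likeness between libraries of the same collection. The difference in share of the class, large minus small, was -4.17 percentage points. Without single libraries it ranged from -6.90 (without Small 1) to 0.24 (without Small 2), it was 0.66 without the 10 highest loci, and with counts outside the miRNA lists as the denominator it was -10.6 (p = 0.0274, exact permutation test), and with a group mean of at least 100 counts it was -9.53. The log2 ratio to loci of 25 to 30 bases, -0.05, ranged from -0.39 without Small 1 to 0.40 without Small 2, and was 0.33 without the 10 highest loci. The share on the 10 highest loci and the ratio to 36 to 50 bases kept their direction and their side of the threshold under every alternative run.

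For large against small, the 1320 calls became 29597 with the total count and 533 with a group mean of at least 100 counts, and ranged from 606 to 1847 when single libraries were left out. Over all tested loci the 5021 calls became 55251 with the total count. For medium against small, the 369 calls became 12104 with the total count, 878 with DESeq2, 914 with edgeR's exact test and 628 at an FDR under 0.1, with a range of 0 to 1516. For large against medium, the 0 calls became 10, 97, 92 and, with a group mean of at least 100, 2. Over all loci tested in these settings the calls were 138, 662, 499 and 42. Loci over 10000 counts called lower numbered 108 for large against small, 24 of 46 with 1 locus per equal-count group and 99 for as many loci chosen on the medium follicle libraries, with a range of 16 to 129. For medium against small they numbered 10, and 88 with the total count, 72 with DESeq2, 46 with the exact test, 44 with a group mean of at least 100 and 3 of 46 with 1 locus per equal-count group, with a range of 0 to 122. The cause of these differences was not tested, beyond the fewer loci that a stricter filter or 1 locus per group leaves.

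Of the 26 fold changes of named loci, over the settings other than leaving out libraries, 181 values kept direction and side of the threshold, 4 no longer passed it, 13 newly passed it and 2 reversed (DESeq2 gave no adjusted p for 1 more); without single libraries these numbers were 162, 64, 7 and 1. The reversals were all those of chr9:65873520-65873551, whose log2 fold change of -0.16 became 1.60 with the total count, 0.064 with a group mean of at least 100 counts and 0.15 without Small 1, and which was lowest, at -0.35, without Small 2. Depth limits the loci of up to 100 counts most: a count of 0 in a library allows up to 3 counts.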

Other observations

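A locus of 33 bases on the plus strand of chromosome 7, chr7:53516527-53516559, chosen after its values were seen, varied more between libraries of a size than between sizes. It had 640, 172 and 838 CPM in Small 1, 2 and 4, 187, 88.6 and 1055 CPM in Medium 5, 6 and 8, and 48.4, 32.7 and 884 CPM in Large 10, 11 and 12. Medium 8 and Large 12 stood far above the other libraries of their sizes. With the same libraries, the mitochondrial locus MT:2345-2379 had 109 CPM in Medium 8 and 52.2 CPM in Large 12, against 13.5 to 28.4 CPM in the other medium and large follicle libraries.

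The 4 loci of 32 bases at chrX:62078363-62081553, on the minus strand, had 110888 to 111690 counts each. Their sum was 5072, 7153 and 5799 CPM in the small, 1970, 2407 and 7561 CPM in the medium and 2356, 2926 and 5374 CPM in the large follicle libraries. Large 12 lay within the range of the small follicle libraries here, and 0 of the 4 loci were called between large and small (log2 fold change -2.41 to -2.38, edgeR's quasi-likelihood FDR 0.12 to 0.125). All 4 were called lower in large without Medium 8 (FDR 0.00177 to 0.00199), with only both sizes fitted (0.00335 to 0.00369) and by edgeR's exact test (0.0424 to 0.0458), and 3 by DESeq2.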
